A study of Homo sapiens with 6 samples.

Results

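The AP-1 and immediate early transcription factors described here are 10 genes, chosen by symbol from 14883 measured genes: the FOS family (FOS, FOSB, FOSL1, FOSL2), the JUN family (JUN, JUNB, JUND), ATF3, EGR1 and EGR3. They were measured in SK-N-BE(2), an established human neuroblastoma cell line from ATCC, grown in medium with serum and an insulin supplement. Cells were infected with a pLKO lentivirus carrying a hairpin against BRG1 (shBRG1, n = 3) or a non-silencing control hairpin (NSC, n = 3), and RNA was taken 48 h later. BRG1 is the ATPase subunit of the SWI/SNF chromatin remodelling complex. Both groups share the cell line, the vector backbone and the infection, and the labels name 1 shBRG1 construct. Each RNA sample gave 1 Affymetrix array of log2 values after RMA, a procedure that corrects background and sets all arrays to a common distribution.

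Immediate early genes are switched on within minutes of a growth factor, depolarisation or stress signal, from transcription factors that are already present in the cell, and their messages decay quickly. FOS and JUN proteins pair through leucine zippers to form AP-1, which binds DNA. JUN proteins can also pair with each other, whereas FOS proteins need a partner. ATF3 is a related leucine zipper protein of the stress response, and the EGR proteins are zinc finger factors induced by ERK signalling through serum response factor (SRF). Serum and insulin, both present in the medium of either group, are known inducers of this class.

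The members, their levels and their changes were put forward with the values of these 6 arrays in view, so the changes below describe the arrays and carry no test. Where a gene had several probe sets the brightest by mean of the 6 arrays was used, which gave 7 members 1 probe set and 3 members a choice between 2. All 10 members had a mean above the middle value of the arrays (medians 3.77 to 3.84), which is no proof of detection because no detection calls were used.

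The promoter sequences of the members with the 3 largest changes, and of JUN and FOS, the founding pair of AP-1, are shown because the members separated into some that were lower and some that were not. RefSeq windows on GRCh38.p14 were scanned for 8 of the 10 members, in 9 windows, since ATF3 has 2 listed starts. EGR3 and FOSL1 were not scanned and are named only, so nothing is said of motifs in their promoters. The ATF3 sequence is at the first of its listed starts, which may not be the inducible promoter of the gene. Each sequence is the 250 bases before a start, 5′ to 3′ on the gene's strand. Capitals mark matches on either strand to the AP-1 site TGANTCA, the CRE-type site TGACNTCA, the short CRE TGACG (which overlaps the CRE-type site when that reads TGACGTCA), the EGR site GCGNGGGCG and the CArG box, the binding motif of SRF.
EGR1, chr5:138465229-138465478, plus strand: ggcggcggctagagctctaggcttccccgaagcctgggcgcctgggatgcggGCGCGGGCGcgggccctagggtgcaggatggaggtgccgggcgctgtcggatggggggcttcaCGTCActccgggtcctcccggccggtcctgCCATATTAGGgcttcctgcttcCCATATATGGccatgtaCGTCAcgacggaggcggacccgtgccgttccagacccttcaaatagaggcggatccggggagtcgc
ATF3, chr1:212565157-212565406, plus strand: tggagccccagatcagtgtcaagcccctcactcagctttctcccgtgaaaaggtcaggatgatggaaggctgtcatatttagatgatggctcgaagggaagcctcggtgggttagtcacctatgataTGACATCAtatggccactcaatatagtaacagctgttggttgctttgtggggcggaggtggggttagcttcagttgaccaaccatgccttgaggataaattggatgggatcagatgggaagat
FOSL2, chr2:28392608-28392857, plus strand: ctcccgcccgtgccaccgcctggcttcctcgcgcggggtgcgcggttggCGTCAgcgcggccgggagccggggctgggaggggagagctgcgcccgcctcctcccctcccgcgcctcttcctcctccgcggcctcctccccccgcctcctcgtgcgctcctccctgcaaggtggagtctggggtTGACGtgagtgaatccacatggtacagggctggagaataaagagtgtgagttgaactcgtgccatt
JUN, chr1:58784048-58784297, minus strand: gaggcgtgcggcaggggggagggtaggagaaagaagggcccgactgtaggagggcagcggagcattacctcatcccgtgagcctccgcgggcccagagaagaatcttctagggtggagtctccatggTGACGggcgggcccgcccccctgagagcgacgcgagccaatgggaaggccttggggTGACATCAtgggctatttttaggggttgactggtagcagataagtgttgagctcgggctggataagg
FOS, chr14:75278578-75278827, plus strand: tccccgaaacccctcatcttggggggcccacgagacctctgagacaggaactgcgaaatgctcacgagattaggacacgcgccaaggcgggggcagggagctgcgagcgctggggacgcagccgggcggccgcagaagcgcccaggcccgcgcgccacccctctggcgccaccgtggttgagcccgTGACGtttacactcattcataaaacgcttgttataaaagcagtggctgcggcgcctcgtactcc

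Within 250 bases before to 50 after a start, the CArG box was present in the EGR1 window, in 2 copies at -105 to -96 and -83 to -74. It was present in none of the other 8 windows. Bases farther upstream were not scanned, so a CArG box there, in FOS or any other member, would be missed. The motif was found in 1.29% of all 35116 windows of this length. EGR1 also held an EGR site at -198 to -190, a motif in 9.43% of windows. CRE-type sites lay in ATF3 at -123 to -116, in JUN at -67 to -60 and in JUND at -200 to -193 (7.72% of windows). FOSL2 had an AP-1 site just after its start, at 4 to 10, which falls outside the printed bases (7.71% of windows). The short CRE was the most widespread motif, in 7 of the 8 scanned genes, against 24.6% of all windows. The members that were lower and those that were not both held CRE-type sites and short CREs. A match to letters describes the window and shows no binding.

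EGR1, ATF3, FOSL2, JUNB and JUN were lower with the BRG1 hairpin, whereas FOS, FOSB, FOSL1, JUND and EGR3 were not separated between the groups. In these 5 of 10 members every shBRG1 array lay below every NSC array, and in 0 members above. Over all genes, 15.3% lay wholly below and 20.3% wholly above the NSC range, and nothing is read from the members' count because the members were put forward from this contrast. The median change of the 10 members was -0.25, against 0.01 over all genes, and it was -0.51 over the 7 members left when genes dimmer than the median gene were dropped. The change was largest in EGR1, about 3-fold on the linear scale, and smallest among the 5 in JUN.

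**Figure D1:**
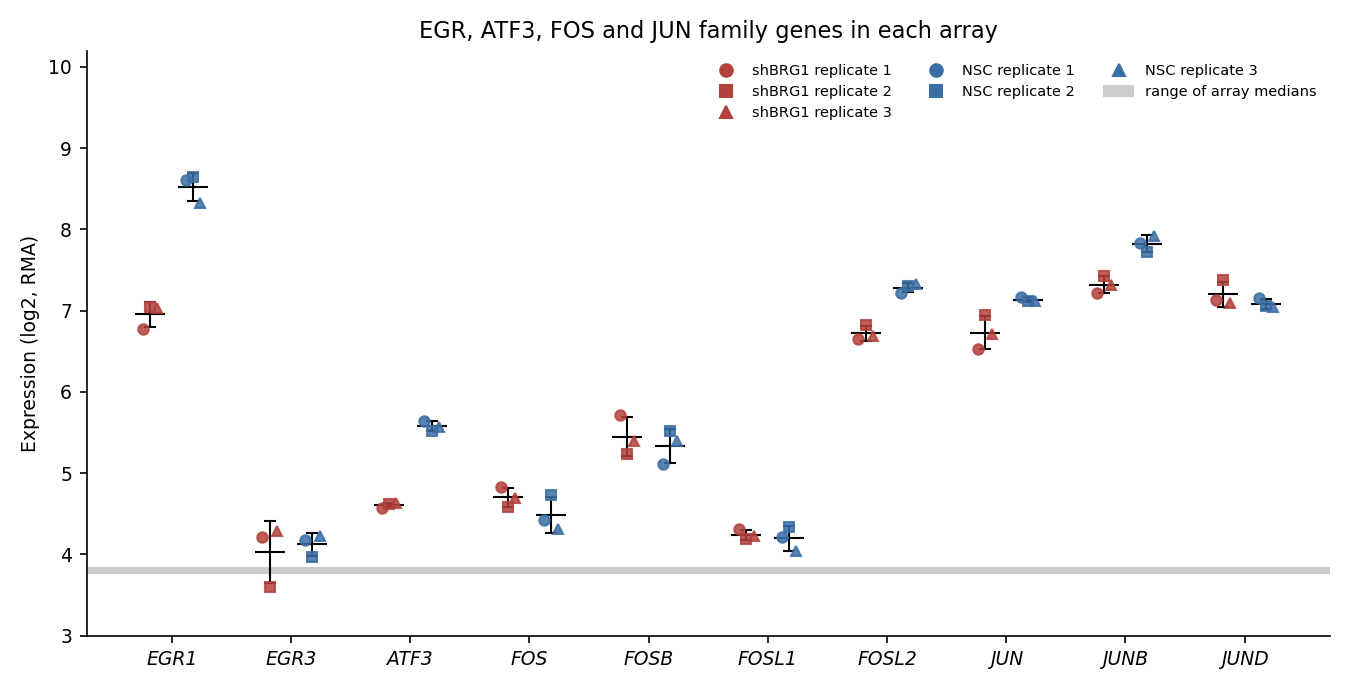
Log2 expression of the 10 genes in each of the 6 arrays, with shBRG1 in red to the left of NSC in blue, marker shapes for replicates, black bars for the mean ± SD (n = 3) and a grey band for the range of array medians. EGR1, ATF3, FOSL2, JUN and JUNB show no overlap between the groups, and the other genes overlap.

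EGR1 encodes a zinc finger transcription factor that is among the most rapidly induced genes of the ERK and SRF pathway. Its log2 level was 6.78, 7.05 and 7.04 in the shBRG1 arrays, against 8.61, 8.65 and 8.33 in the NSC arrays. The lowest NSC array stood more than 1 log2 unit above the highest shBRG1 array. The change was -1.57 (SE 0.11), a level 2.98-fold lower, with means of 6.95 ± 0.15 in shBRG1 and 8.53 ± 0.17 in NSC (SD, n = 3 each). By signed change EGR1 ranked 12th lowest among the 14883 genes.

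EGR1, FOS and FOSB each had a second, dimmer probe set that the platform annotation gives the same gene and RefSeq transcript. The strand and the exons these probe sets read are not given in the sources used here, so they may not measure the messenger RNA of the gene, and their values describe the probe sets only. That of EGR1, on the same 6 arrays, gave 4.42, 4.40 and 4.41 in shBRG1, against 5.69, 5.75 and 5.60 in NSC. The groups again did not overlap, and the log2 change was -1.27, or 2.41-fold lower. The replicate spread in shBRG1 was 0.01 (SD, n = 3) for this probe set, against 0.08 in NSC.

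EGR3, a relative of EGR1 that binds similar DNA sites, stayed within its replicate spread. It read 4.21, 3.596 and 4.29 in shBRG1, against 4.18, 3.97 and 4.23 in NSC. The groups overlapped, and the shBRG1 range was set by replicate 2 alone. The change was -0.09 (SE 0.18), and without that array it was 0.13.

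ATF3 is a leucine zipper factor induced by amino acid shortage, DNA damage and serum, which as a homodimer represses transcription. It read 4.58, 4.62 and 4.63 in shBRG1, against 5.64, 5.52 and 5.57 in NSC. No array of one group came near the other, and its replicate spread (pooled SD 0.05) was the smallest of the 10 members. The change was -0.97 (SE 0.07), 1.96-fold lower, and ranked 82nd lowest among all genes by signed change.

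The FOS family members differed from each other. FOSL2, which encodes FRA-2, a FOS protein that lacks the transactivation domain of FOS itself, read 6.65, 6.82 and 6.69 in shBRG1, against 7.22, 7.30 and 7.33 in NSC. All shBRG1 arrays were below all NSC arrays, and the change was -0.56 (SE 0.08), 1.48-fold lower. It was the one FOS family member of the 4 whose groups were separate.

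FOS read 4.82, 4.59 and 4.70 in shBRG1, against 4.42, 4.73 and 4.31 in NSC. The groups overlapped through NSC replicate 2, and the change was 0.21 (SE 0.12). Its second probe set had the opposite sign, with a change of -0.16 between means of 4.12 ± 0.14 in shBRG1 and 4.28 ± 0.24 in NSC (SD, n = 3 each), and it overlapped too. Whether that probe set reads FOS messenger RNA was not tested.

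FOSB, which is known for long-lived splice forms in neurons, read 5.72, 5.24 and 5.39 in shBRG1, against 5.11, 5.52 and 5.39 in NSC. The groups covered much the same range, with a change of 0.11 (SE 0.15) and one of -0.05 in its second probe set. FOSL1, which encodes FRA-1, an ERK-stabilised FOS protein of mesenchymal and invasive cells, was at 4.31, 4.19 and 4.22 in shBRG1, against 4.21, 4.34 and 4.04 in NSC. Its change was 0.04 (SE 0.09), and the shBRG1 values lay inside the NSC range.

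**Figure D2:**
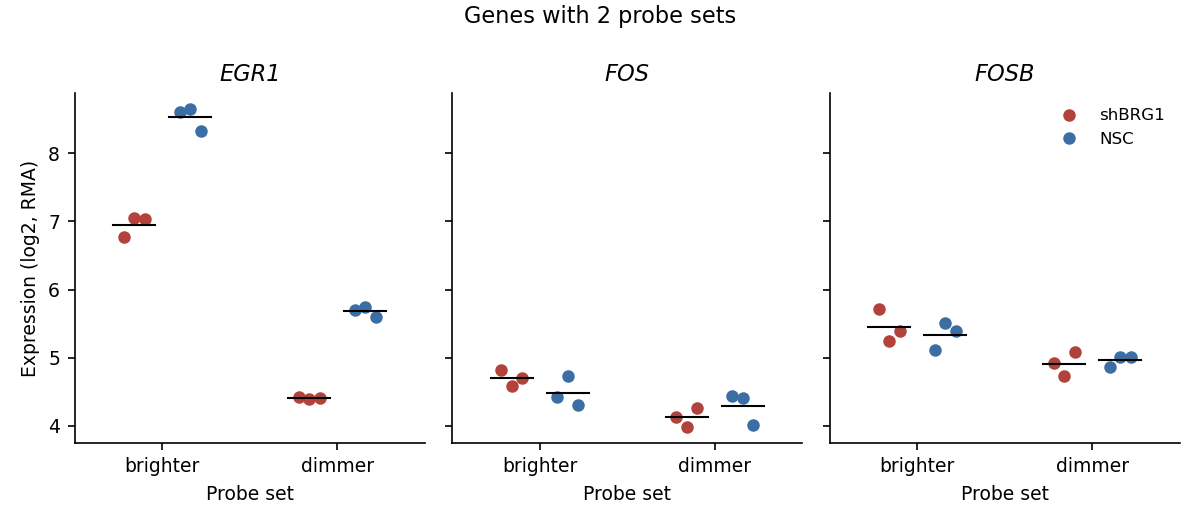
Log2 values of the brighter and the dimmer probe set annotated to EGR1, FOS and FOSB, the dimmer ones of unknown strand, with shBRG1 (red) left of NSC (blue), 1 point per array and a bar at each mean. Both EGR1 probe sets separate the groups, by -1.57 and -1.27, whereas those of FOS (0.21 and -0.16) and FOSB (0.11 and -0.05) overlap and differ in sign.

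Among the JUN family, JUN and JUNB were lower and JUND was not. JUNB, an early induced subunit that can restrain JUN, read 7.22, 7.42 and 7.32 in shBRG1, against 7.84, 7.72 and 7.93 in NSC. The groups were separate, with a change of -0.51 (SE 0.09), 1.42-fold lower. JUN, the principal activating subunit and a substrate of the JNK kinases, read 6.53, 6.94 and 6.71 in shBRG1, against 7.17, 7.12 and 7.12 in NSC. The NSC arrays were tight (SD 0.03) and the shBRG1 arrays spread (SD 0.21), the gap between groups being set by shBRG1 replicate 2. The change was -0.41 (SE 0.11), 1.33-fold lower.

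JUND, the JUN protein that is present in resting cells and least dependent on induction, read 7.13, 7.38 and 7.10 in shBRG1, against 7.15, 7.06 and 7.04 in NSC. Replicate 2 stood above the other arrays, and the rest overlapped. Its change was 0.12 (SE 0.09), and 0.03 without shBRG1 replicate 2.

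**Figure D3:**
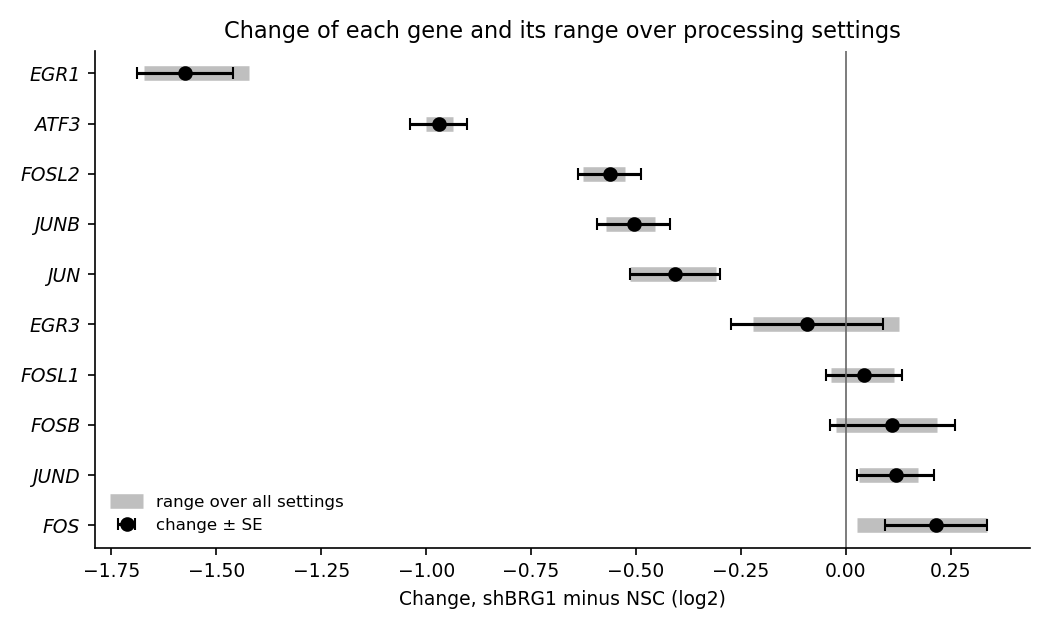
Change of each gene on the log2 scale (shBRG1 minus NSC, horizontal axis) with its standard error, and in grey its range over all processing settings including those that leave out 1 array. EGR1, ATF3, FOSL2, JUNB and JUN stay below 0 in every setting, while the grey ranges of EGR3, FOSL1 and FOSB cross 0. Leaving out an array cannot reverse the sign of a gene whose groups are separate.

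The spread between replicates differed among the members. The pooled SD ran from 0.05 in ATF3 to 0.29 in EGR3, with a median of 0.13, against a median of 0.11 over all genes, and 7 of the 10 members were above that median. In shBRG1 replicate 2, 5 members were the highest of the 3 shBRG1 arrays (FOSL2, JUN, JUNB, JUND and EGR1) and 4 were the lowest (FOSL1, FOS, FOSB and EGR3). On that array the first 5 lay between 6.82 and 7.42, and the other 4 between 3.596 and 5.24. The same array had the lowest median (3.77), the lowest lower quartile (2.66) and the highest upper quartile (5.80) of the 6 arrays. The part of this in the members' order was not tested.

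The genes whose 6 values followed EGR1 most closely, by Pearson correlation over the arrays, were KBTBD2 (r = 0.9988), GALNT6 (r = 0.9987) and KIF14 (r = 0.9981). Those most like ATF3 were FYTTD1 (r = 0.9996), LYPLA1 (r = 0.9996) and GALNT1 (r = 0.9994). Those most like FOSL2 were MCC (r = 0.9995), ZNF827 (r = 0.9983) and RRS1 (r = 0.9976). With 2 groups of 3 arrays, any gene that differs strongly between the groups correlates in this way, and 548, 669 and 565 genes had r above 0.95 with EGR1, ATF3 and FOSL2 in that order.

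Genes outside the 10 members could be tested, within a limma fit over all 14883 genes in which 17.0% passed an adjusted p of 0.05 by Benjamini and Hochberg, 9.78% higher and 7.19% lower. These were 1455 genes higher and 1070 lower, and after cyclic loess scaling 1212 higher and 1329 lower, so the balance of directions turned. The count of 2525 genes fell to 1633, 1662 and 1604 in fits lacking the first, the second or the third shBRG1 array. It fell to 1758, 1759 and 1840 in fits lacking the first, the second or the third NSC array. With genes dimmer than the median gene left out, 3201 of 7442 genes passed, a larger share. The shares of the lists are set against a background that moves in these ways. The labels speak of triplicates and do not say if cultures were kept apart, so a p-value here reflects the spread among these 6 samples, possibly a technical one. The genes of the pathway form 5 lists, and markers of cell types 3 more, drawn from textbook knowledge, with earlier results of these data known. All adjusted p-values below are from that fit.

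Other immediate early genes that changed were mostly lower. Of 27 measured genes of 48 listed, 6 fell, 2 rose and 19 did not pass, or 29.6% called against 17.0% over all genes. With genes dimmer than the median gene left out, 7 of 16 passed, near the share of 3201 of 7442 over all genes kept. The median change was -0.10. KLF10, a zinc finger repressor induced by TGF-beta and serum, had a log2 change of -1.0003 (2.00-fold lower, SE 0.08, adjusted p = 4.0e-04), at 7.38 ± 0.03 in shBRG1 and 8.38 ± 0.10 in NSC (SD, n = 3 each). The log2 level of IER2, a nuclear protein induced together with FOS and JUN, fell by 0.70 (adjusted p = 0.0027). IER3, an ERK-regulated survival protein, fell by 0.68 (adjusted p = 0.0055), and IER5, a regulator of heat shock factor, by 0.56 (adjusted p = 0.0034).

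GEM, a small GTPase of the RAS superfamily, fell by 0.56 (adjusted p = 0.0067) from values near or below the array medians (3.32 ± 0.14 in shBRG1 and 3.89 ± 0.08 in NSC; SD, n = 3 each). ARC, an activity-regulated synaptic gene named after its value was seen, fell by 0.48 (adjusted p = 0.0090). The kinase SGK1 rose by 0.51 (adjusted p = 0.0046), as did ERF by 0.54 (adjusted p = 0.0079), an ETS-family repressor that ERK expels from the nucleus and that was also named after its value was seen. KLF6 had a change of -0.02 (adjusted p = 0.89) and EGR4 one of 0.14 (adjusted p = 0.26). EGR2 and NR4A1 were not analysed here.

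The list called feedback inhibitors also holds other genes listed as negative regulators of ERK, JNK, AP-1 or EGR factors, not all of which act in feedback. It held the highest share of calls among the 5 lists. Of 32 measured genes of 41 listed, 9 fell, 4 rose and 19 did not pass, or 40.6% called, against 17.0% over all genes. The shares lay closer together with genes dimmer than the median gene left out, at 14 of 28 against 3201 of 7442. With 1 array left out, 10 to 12 of its genes passed. The median change was -0.07. NAB1 and NAB2, corepressors that bind EGR proteins, were both lower, NAB1 by 1.83-fold (-0.87, SE 0.09, adjusted p = 0.0015) and NAB2 by 1.42-fold (-0.50, SE 0.08, adjusted p = 0.0063). NAB1 was at 5.23 ± 0.16 in shBRG1 and 6.10 ± 0.06 in NSC (SD, n = 3 each).

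DUSP6, the cytoplasmic ERK phosphatase that ERK itself induces, was 1.68-fold lower (-0.75, SE 0.09, adjusted p = 0.0019), at 6.02 ± 0.07 in shBRG1 and 6.77 ± 0.13 in NSC (SD, n = 3 each). SPRY4 and SPRY2, Sprouty inhibitors of receptor tyrosine kinase signalling, had changes of -0.59 (adjusted p = 0.0017) and -0.41 (adjusted p = 0.0063). The pseudokinase TRIB2 fell by 0.54 (adjusted p = 0.0020). DUSP1, a nuclear MAP kinase phosphatase and an immediate early gene itself, had a change of -0.14 (adjusted p = 0.32). The 4 that rose, named after their values were seen, were the phosphatases DUSP16 (0.44), DUSP18 (0.51) and DUSP22 (0.65), and DET1 (0.34), a component of the ubiquitin ligase that targets JUN. DUSP18 lost its call without shBRG1 replicate 1 or 2 or any 1 NSC array (adjusted p up to 0.082), and DUSP22 without shBRG1 replicate 1 or 3 or NSC replicate 1 or 2 (up to 0.066).

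**Figure D4:**
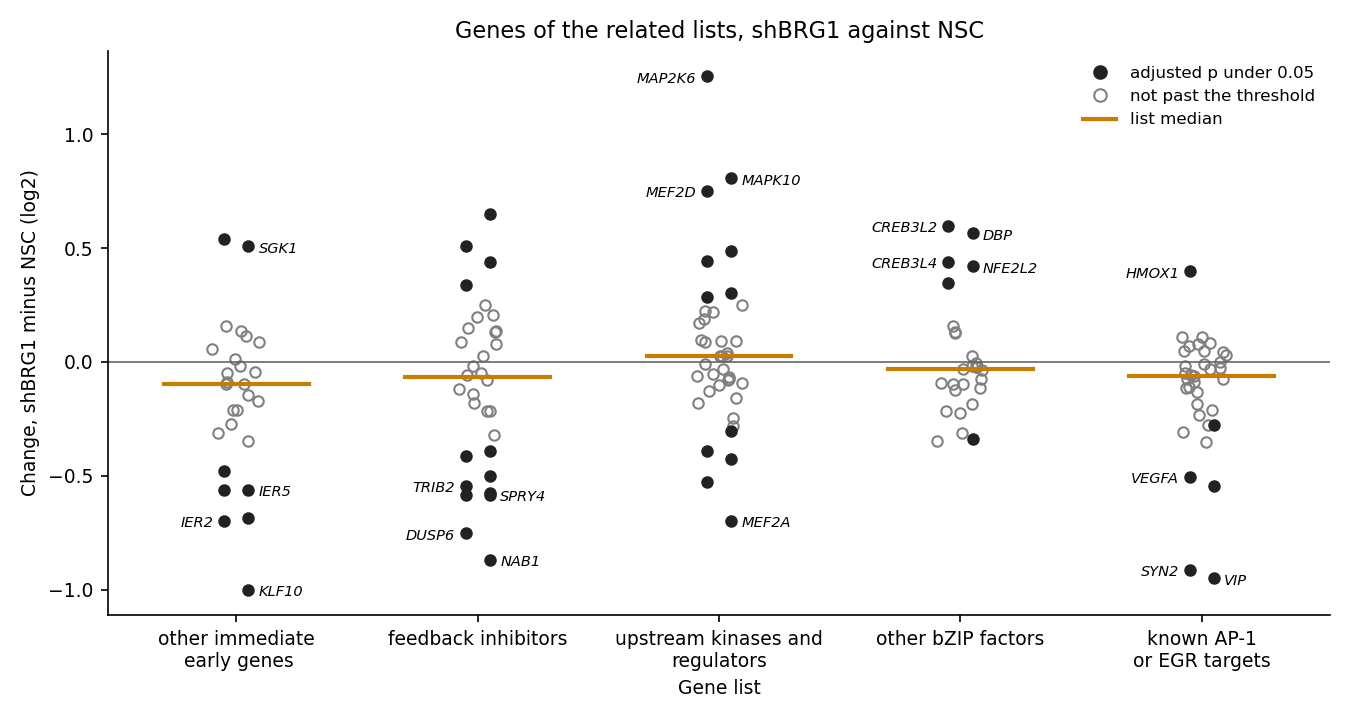
Change on the log2 scale (shBRG1 minus NSC, vertical axis) of every measured gene in 5 related lists, with filled points past an adjusted p of 0.05, open points not past it, a bar at each list's median, and the 4 called genes of smallest p named. Calls lie mostly below 0 for other immediate early genes (6 of 8) and feedback inhibitors (9 of 13), and above 0 for other bZIP factors (5 of 6). Over all genes, 1455 calls were higher and 1070 lower.

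Kinases and factors upstream of these genes changed in both directions. Of 39 measured genes of 56 listed, 7 rose, 5 fell and 27 did not pass, or 30.8% called against 17.0% over all genes. When genes dimmer than the median gene were left out, 13 of 30 passed, near the share of 3201 of 7442 over all genes kept. The median change was 0.02. After cyclic loess scaling 5 rose and 7 fell. The count of calls was 5 without shBRG1 replicate 3, 7 without shBRG1 replicate 1 or NSC replicate 1 or 2, and 6 without NSC replicate 3. MAP2K6, an activating kinase of p38, rose by 1.25 (SE 0.12, adjusted p = 0.0011), and MAPK10, the neuronal JNK3, by 0.81 (adjusted p = 0.0032). MAPK10 was at 3.82 ± 0.15 in shBRG1 and 3.02 ± 0.16 in NSC (SD, n = 3 each), the NSC level lying below the array medians.

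The MEF2 factors, which drive JUN transcription among other targets, parted. MEF2D rose by 0.75 (SE 0.06, adjusted p = 6.2e-04), with levels of 8.06 ± 0.05 in shBRG1 and 7.31 ± 0.03 in NSC. MEF2A fell by 0.70 (SE 0.07, adjusted p = 0.0014), with levels of 6.30 ± 0.08 in shBRG1 and 7.002 ± 0.06 in NSC (SD, n = 3 each). MAPK9, which encodes JNK2, fell by 0.53 (adjusted p = 0.0041), and MAP2K1, the ERK activator MEK1, by 0.43 (adjusted p = 0.014, and 0.052 at most, without shBRG1 replicate 1 or 3).

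MAPKAPK3 (-0.30) and the RAF scaffold KSR1 (-0.39), both named after their values were seen, had adjusted p-values of 0.028 each. Both calls were lost without shBRG1 replicate 1 or 3 or NSC replicate 1 or 3, and that of MAPKAPK3 also without NSC replicate 2 or after centring (up to 0.095, and 0.092 for KSR1). SRF rose by 0.28 (adjusted p = 0.032), a call lost after cyclic loess and whichever array was left out (up to 0.092). MAP2K5 rose by 0.48 (adjusted p = 0.033), MAP2K3 by 0.44 and COPS5 by 0.30 (adjusted p = 0.039 each), all named after their values were seen. With 1 array left out, 3 to 5 genes of the list rose past the threshold. MAPK3, the ERK1 kinase, had a change of -0.07 (adjusted p = 0.59) and CREB1, the cyclic AMP response factor, one of -0.09 (adjusted p = 0.57).

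Among other bZIP factors, the leucine zipper relatives and possible partners of AP-1, 27 of 44 listed genes were measured. Of these 5 rose, 1 fell and 21 did not pass, or 22.2% called against 17.0% over all genes. When genes dimmer than the median gene were left out, 7 of 18 passed, against 3201 of 7442 over all genes kept. The median change was -0.03. CREB3L2, a membrane-bound factor of the secretory pathway, rose by 0.60 (SE 0.07, adjusted p = 0.0024), at 6.98 ± 0.10 in shBRG1 and 6.39 ± 0.03 in NSC (SD, n = 3 each). DBP, a clock-controlled factor, rose by 0.56 (adjusted p = 0.0059), CREB3L4 by 0.44 (adjusted p = 0.0092) and NFE2L2, the oxidative stress factor NRF2, by 0.42 (adjusted p = 0.0056). NFE2L1 rose by 0.35 (adjusted p = 0.017, and up to 0.057 without NSC replicate 2 or shBRG1 replicate 2 or 3) and XBP1, a factor of the unfolded protein response, fell by 0.34 (adjusted p = 0.021, and up to 0.075 without replicate 1 or 3 of either group). JDP2, a repressive partner of JUN, had a change of -0.22 (adjusted p = 0.20), and ATF4, a known inducer of ATF3, one of -0.02 (adjusted p = 0.91).

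Genes with textbook AP-1 or EGR sites were called at about the background share, 6 of 35 measured genes of 50 listed or 17.1%, with a median change of -0.06. When genes dimmer than the median gene were left out, 6 of 16 passed, against 3201 of 7442 over all genes kept. VIP, a neuropeptide with a CRE in its promoter, was 1.93-fold lower (-0.95, SE 0.06, adjusted p = 2.9e-04), at 9.74 ± 0.04 in shBRG1 and 10.69 ± 0.03 in NSC (SD, n = 3 each). SYN2, the synaptic vesicle protein synapsin II and a gene with a known EGR site, was 1.88-fold lower (-0.91, SE 0.08, adjusted p = 6.2e-04). The angiogenic factor VEGFA fell by 0.51 (adjusted p = 0.0045), and the haem oxygenase gene HMOX1, also a target of NFE2L2, rose by 0.40 (adjusted p = 0.012).

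FGF2 (-0.55, adjusted p = 0.0498) and CD44 (-0.28, adjusted p = 0.033) were at the edge of the threshold, and both lost their calls. FGF2 did so without replicate 1 or 2 of either group (up to 0.14), and CD44 without shBRG1 replicate 1 or 3, without any 1 NSC array, after centring and with trend and robust options (up to 0.11). CCND1, the cyclin D1 gene and a JUN target, had a change of -0.05 (adjusted p = 0.68), and TIMP1, a matrix protease inhibitor with an AP-1 site, one of 0.00 (adjusted p = 0.999). PLAU was not analysed here.

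Arrays correlated at r = 0.991 to 0.993 within groups and 0.986 to 0.988 between them, across probe sets. Of 17 sympathetic neuroblast markers 13 were measured, with list means of 9.57 to 9.62 in shBRG1 and 9.83 to 9.88 in NSC. Of these 8 fell (adjusted p 0.0017 to 0.023) and 0 rose past the threshold, or 61.5% called against 17.0% over all genes. The 5 that did not pass were HAND1 (-0.32), GATA3 (0.21), TH (0.11), DBH (0.08) and STMN2 (0.07). Their adjusted p ran from 0.059 to 0.54. Of 9 Schwann and glial markers 5 were measured, with list means of 4.002 to 4.03 in shBRG1 and 4.18 to 4.22 in NSC, near the array medians. FOXD3 alone passed (20%), being lower (adjusted p = 0.041), a call lost whichever array was left out. Of 10 mesenchymal stroma markers 4 were measured, with list means of 6.89 to 6.9997 in shBRG1 and 6.66 to 6.81 in NSC. DCN and LUM rose (0.44 and 0.39, adjusted p = 0.0092 and 0.027), or 50% called against 17.0% over all genes. TWIST1 (0.08, adjusted p = 0.49) and THY1 (-0.07, adjusted p = 0.58) did not pass. The call of LUM was lost when shBRG1 replicate 1 or 2, or NSC replicate 2 or 3, was dropped (adjusted p up to 0.082). In these bulk samples fewer cells of a type and less RNA per cell cannot be told apart, and the part of these shifts in the members' values was not tested. The transcript targeted by the hairpin was not analysed here, so the arrays are grouped by their labels.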

How the data were processed

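Total RNA (200 ng) of 6 SK-N-BE(2) samples was hybridised to 1 array each, per the labels' protocols. The deposited log2 values, 1 per probe set and array, run from 1.19 to 13.8, a range from which the log2 scale was inferred. The submitters' processing notes list RMA and the packages limma 3.19 and oligo 1.27 under R 3.1.0. The genome build of the probes was not given in the sources used here. RMA hides a shift of all genes at once and can understate changes of dim probe sets.

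The table held 52299 probe sets, of which 15828 had 1 gene symbol, 0 several and 36471 none. All 15828 symbols were matched through gene identifiers to the GRCh38.p14 table. Keeping the brightest probe set per gene left 14883 genes. Groups follow the lentivirus label. Each gene was fitted with limma 3.58.1, run under R 4.3.3 (two-sided moderated test from lmFit and eBayes, no covariates), with Benjamini-Hochberg adjustment over all genes and a threshold of 0.05. Changes are shBRG1 minus NSC with the moderated standard error. With 3 against 3 arrays the smallest two-sided p of an exact permutation test is 0.1. The arrays, 3 per group, limit the precision.

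The members and lists were chosen with earlier results of these data known. Named were all members, up to 6 called genes of each list with the smallest p, 19 preset genes, and the 3 genes most correlated with each of the 3 members of largest change. Genes outside this rule were named after their values were seen: ARC, ERF, DUSP16, DUSP18, DUSP22, DET1, MAPKAPK3, KSR1, MAP2K5, MAP2K3, COPS5, FOXD3, DCN, LUM, TWIST1, THY1, HAND1, GATA3, TH, DBH and STMN2. Of 232 listed genes 155 were measured, and 5 (ATF2, CREB1, JDP2, MAFF and TRIB1) stand in 2 lists. Simulated data had 14883 genes, of which 100 were given a change. The fit recovered 38 of these 100 at a log2 change of 0.5 and 89 at one of 1, with 7 false calls each. The 6 arrays gave 2525 calls, and the adjusted threshold moves with the share of changed genes. Recovery on the simulated data therefore does not give the power in these arrays. Promoter windows are from RefSeq (GRCh38.p14), 250 bases before to 50 after a start. Figures used matplotlib 3.10.9 in Python 3.11.15.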

Additional observations from a re-analysis of the deposited data

How the results depend on the processing

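Alternatives were centring of arrays, cyclic loess, a filter that drops genes below the median gene, averaging probe sets, trend and robust options, the replicate number as a block, and leaving out each array. Of 117 changes of single members under these, 116 moved by less than the replicate SD and 0 of the 5 separated members changed sign. Most of this was fixed in advance. Leaving out 1 array cannot move a change by its pooled SD or reverse the sign of a separated member. The trend and robust options, the block and the filter leave each change as it was. Averaging does the same for the 7 members with 1 probe set. The value of FOS was 0.03 with its probe sets averaged. The median change of the members was -0.51 with dim genes left out (7 members) and -0.31 to -0.23 with 1 array left out. The members wholly below the NSC range numbered 5 under each scaling, filter and left-out array, a count chosen after seeing the data. Leaving out an array cannot undo a separation, and the filter removes genes without changing values. Those settings therefore do not test the count. Genes past the threshold numbered 1604 to 1840 with 1 array left out, the lower values being 1633, 1662 and 1604 when shBRG1 replicate 1, then 2, then 3 was dropped. The replicate numbers share only a number (correlation of same-numbered deviations -0.04, -0.14 and -0.03), and with them as a block 1608 genes passed, against 2525. Calls among upstream kinases and regulators, 12 in all, were 5 to 8 with 1 array left out. The other 4 lists stayed within 1.5 times of their counts under every alternative. With dim genes left out, 3201 of 7442 genes passed, so the list counts under that filter stand against a larger background share. Changes of dim genes such as EGR3 and FOSL1 are limited by signal over background, which was not measured here.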
